A study of Mus musculus with 4 samples.

Results

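The loci of the 5 Ikaros family genes, Ikzf1 to Ikzf5, were described by their open chromatin in mouse T-helper 17 (Th17) primary cells, the CD4 T cells that make interleukin 17. Each locus was the gene body of GENCODE release M21 (build mm10) plus 50 kb on each side, and its members were all open regions that overlapped this window in the deposited lists of 4 replicates. Merging the 4 lists gave 96 regions at the 5 loci, of 101015 in the genome. The measurement was ATAC-seq, in which a transposase cuts into open DNA. The single group held 4 biological replicates of strain C57BL/6NJ, with sex not collected, age unknown and no treatment or genotype named. The names of the deposited regions also hold a label in hours and the label ASTARR.insert, whose meaning is not stated. All 4 carry the same donor identifier, and nothing says whether they came from different animals or cultures, so the spread between them may be technical. A replicate had 83904 to 85293 regions, and depth is unknown because the lists hold no read counts. No other cell type was measured, so nothing here is a comparison between conditions.

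Ikaros family proteins are zinc finger transcription factors. One group of fingers binds DNA, most often at a GGGAA core, and the last pair joins members of the family to each other. They recruit the NuRD chromatin remodelling and deacetylase complex and can silence or activate genes. Ikzf1 encodes Ikaros, which is needed for lymphocyte development and restrains T cell activation. Ikzf2 encodes Helios and Ikzf4 encodes Eos, both known from regulatory T cells, where Eos works with Foxp3. Ikzf3 encodes Aiolos, known from B cells and from Th17 cells, where it silences Il2. Ikzf5 encodes Pegasus, the most divergent member, which is widely expressed.

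The genes lie at chr11:11685003-11772926 on the plus strand (Ikzf1, 87924 bp), chr1:69531214-69687245 on the minus strand (Ikzf2, 156032 bp), chr11:98464902-98546031 on the minus strand (Ikzf3, 81130 bp), chr10:128630843-128645991 on the minus strand (Ikzf4, 15149 bp) and chr7:131388652-131410521 on the minus strand (Ikzf5, 21870 bp). The sequences below are those the results turn on: DNA just before the start of 4 of the genes, DNA before an internal start of Ikzf1, and the summit of the body region with the highest signal in Ikzf1, Ikzf3, Ikzf4 and Ikzf5. They are from the GRCm38.p6 reference (strain C57BL/6J), 5′ to 3′ on the gene's strand, with capitals marking the motif strings described further on. The first start of a printed stretch is the outermost of GENCODE and RefSeq in the region, while distances further on are from the GENCODE start.
Ikzf1 before the first start, chr11:11684812-11684961: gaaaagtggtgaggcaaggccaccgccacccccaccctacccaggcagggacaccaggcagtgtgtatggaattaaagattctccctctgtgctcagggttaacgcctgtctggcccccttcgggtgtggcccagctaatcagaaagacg
Ikzf1 before the internal RefSeq start, chr11:11689971-11690120, ETS string: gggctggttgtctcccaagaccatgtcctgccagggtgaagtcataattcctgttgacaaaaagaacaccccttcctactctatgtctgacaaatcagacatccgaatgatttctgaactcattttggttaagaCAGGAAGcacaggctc
Ikzf1 intron, chr11:11725615-11725764, Ikaros core string: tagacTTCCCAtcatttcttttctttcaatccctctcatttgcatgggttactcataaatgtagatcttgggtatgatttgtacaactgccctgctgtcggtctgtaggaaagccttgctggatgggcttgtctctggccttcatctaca
Ikzf2 before the first start, chr1:69687352-69687501, KLF/SP strings: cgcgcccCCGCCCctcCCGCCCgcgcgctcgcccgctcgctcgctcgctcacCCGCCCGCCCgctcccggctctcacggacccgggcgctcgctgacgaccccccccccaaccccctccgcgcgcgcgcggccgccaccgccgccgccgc
Ikzf3 before the first start, chr11:98546032-98546181: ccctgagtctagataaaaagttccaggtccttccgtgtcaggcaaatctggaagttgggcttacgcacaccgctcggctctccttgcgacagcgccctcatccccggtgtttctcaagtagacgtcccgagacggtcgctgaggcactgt
Ikzf3 intron, chr11:98470349-98470498, RUNX and AP-1 strings: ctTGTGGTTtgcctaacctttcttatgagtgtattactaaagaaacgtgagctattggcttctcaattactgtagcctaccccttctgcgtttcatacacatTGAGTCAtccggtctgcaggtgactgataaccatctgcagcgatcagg
Ikzf4 intron, chr10:128637147-128637296, RUNX string: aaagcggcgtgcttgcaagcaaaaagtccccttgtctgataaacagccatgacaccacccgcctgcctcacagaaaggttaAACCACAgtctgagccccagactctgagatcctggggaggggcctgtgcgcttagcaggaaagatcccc
Ikzf5 between its start and that of Acadsb, chr7:131410522-131410600: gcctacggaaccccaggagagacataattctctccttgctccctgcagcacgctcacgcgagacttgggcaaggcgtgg
Ikzf5 intron, chr7:131397581-131397730: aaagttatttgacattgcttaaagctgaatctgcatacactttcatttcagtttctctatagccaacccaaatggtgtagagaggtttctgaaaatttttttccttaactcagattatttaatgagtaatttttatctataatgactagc
The Ikzf2 sequence was 86.7% G or C, with 4 KLF/SP strings, and the Ikzf5 intron sequence was 30% G or C, with none of the strings searched.

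All 5 promoters were open. A promoter was called open when every replicate had a region within 1 kb of an annotated transcription start, which held for 5 of 5 genes beside 64.1% of the 21938 protein-coding genes. The number was 5 as well with any single replicate left out, and 4, without Ikzf1, when only the 50000 regions of highest signal in each replicate were kept. Ikzf3 was kept there by a region at the start of a noncoding transcript inside the gene. The region at its coding start had a lower signal than that of Ikzf1. The loci differed in how many regions they held, how strong these were, and which annotated starts they covered.

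The Ikzf1 locus held the most regions. Replicates 1 to 4 listed 38, 34, 34 and 38 regions there, 36.0 ± 2.31 (SD, n = 4), and these covered 16.8% ± 0.881 of the window. The Ikzf3 locus had 18, 19, 20 and 18 regions, 18.8 ± 0.957, covering 10.5% ± 0.508. The Ikzf4 locus had 14, 13, 13 and 10 regions, 12.5 ± 1.73, covering 11.7% ± 0.301. Every replicate thus placed Ikzf1 above Ikzf3, and Ikzf3 above Ikzf4, in number. The Ikzf2 locus, with the longest gene, had only 10, 11, 11 and 11 regions, 10.8 ± 0.50, covering 3.03% ± 0.181. The Ikzf5 locus had 7, 9, 7 and 7 regions, 7.50 ± 1.00, covering 5.94% ± 0.296. Ikzf4 exceeded Ikzf2 in replicates 1, 2 and 3 and not in replicate 4, so this pair was not separated beyond its spread.

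Of the 96 merged regions, 72 (75.0%) were shared, meaning present in all 4 replicates, beside 68% of the genome's regions. The shared regions numbered 28 of 41 at Ikzf1, 10 of 12 at Ikzf2, 17 of 22 at Ikzf3, 10 of 13 at Ikzf4 and 7 of 8 at Ikzf5. Per 100 kb of window this was 14.9 at Ikzf1, 9.39 at Ikzf3, 8.68 at Ikzf4, 5.74 at Ikzf5 and 3.91 at Ikzf2, with a median of 5.21 over the windows of all protein-coding genes. Among genes of like length, from 0.8 to 1.25 times the gene's own, these densities stood at percentile 99.9 for Ikzf1, 89.0 for Ikzf3, 72.8 for Ikzf4, 48.4 for Ikzf5 and 46.9 for Ikzf2. Read in each replicate alone, the Ikzf1 percentile ranged only from 99.8 to 99.9. Ikzf3 averaged 84.0 ± 2.65 and Ikzf4 74.3 ± 10.8, and their order was turned in replicate 1. Ikzf2 averaged 39.8 ± 1.89 and Ikzf5 40.2 ± 6.49, and these were not separated. Within the Ikzf1 body alone there were 19 shared regions, where genes of like length had a median of 4 and a highest count of 21.

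**Figure D1:**
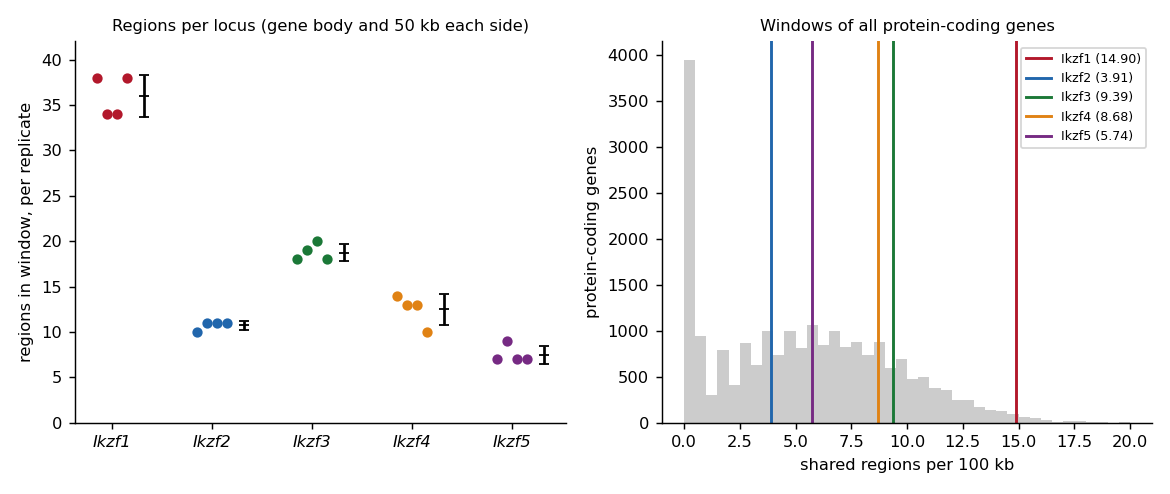
Left, number of open regions in the window of each gene in each of the 4 replicates (points), with the mean and SD beside them. Right, shared regions per 100 kb in the windows of all protein-coding genes (grey bars, number of genes), with a line for each of the 5 genes. Ikzf1 lies in the far upper tail at 14.9 per 100 kb and Ikzf2 below the median at 3.91.

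The regions were next ranked by strength. Signal, as deposited, is a region's enrichment over background, and its percentile is its rank among all regions of its replicate, with 100 the strongest. The deposited -log10 q, which measures how surely a region was called, was ranked in the same way. The 28 shared regions of Ikzf1 were weak by signal, with a median percentile of 29.5, beside 58.8 over all shared regions of the genome. The medians at the other loci were 56.7 for Ikzf2, 56.9 for Ikzf3, 77.3 for Ikzf4 and 84.5 for Ikzf5. The densest locus of the family thus had the lowest median signal.

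The low signal at Ikzf1 lay inside the gene. The 19 shared regions with their summit in the body had signal percentiles from 0.166 to 58.8, with a median of 13.8, and 13 of them fell below percentile 25. The 9 in the flanks ran from 10.3 to 94.4 with a median of 84.7, and 1 fell below 25. Of all shared regions in the genome 13.6% fell below 25. By -log10 q the body regions were not low in the same way: they ran from 7.59 to 95.8 with a median of 52.1, beside a genome median of 58.8. At the locus as a whole the median was 29.5 by signal and 59.1 by -log10 q. At the other 4 loci the medians by signal and by -log10 q were closer, with medians by -log10 q of 53.0 at Ikzf2, 76.5 at Ikzf3, 81.1 at Ikzf4 and 85.3 at Ikzf5.

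**Figure D2:**
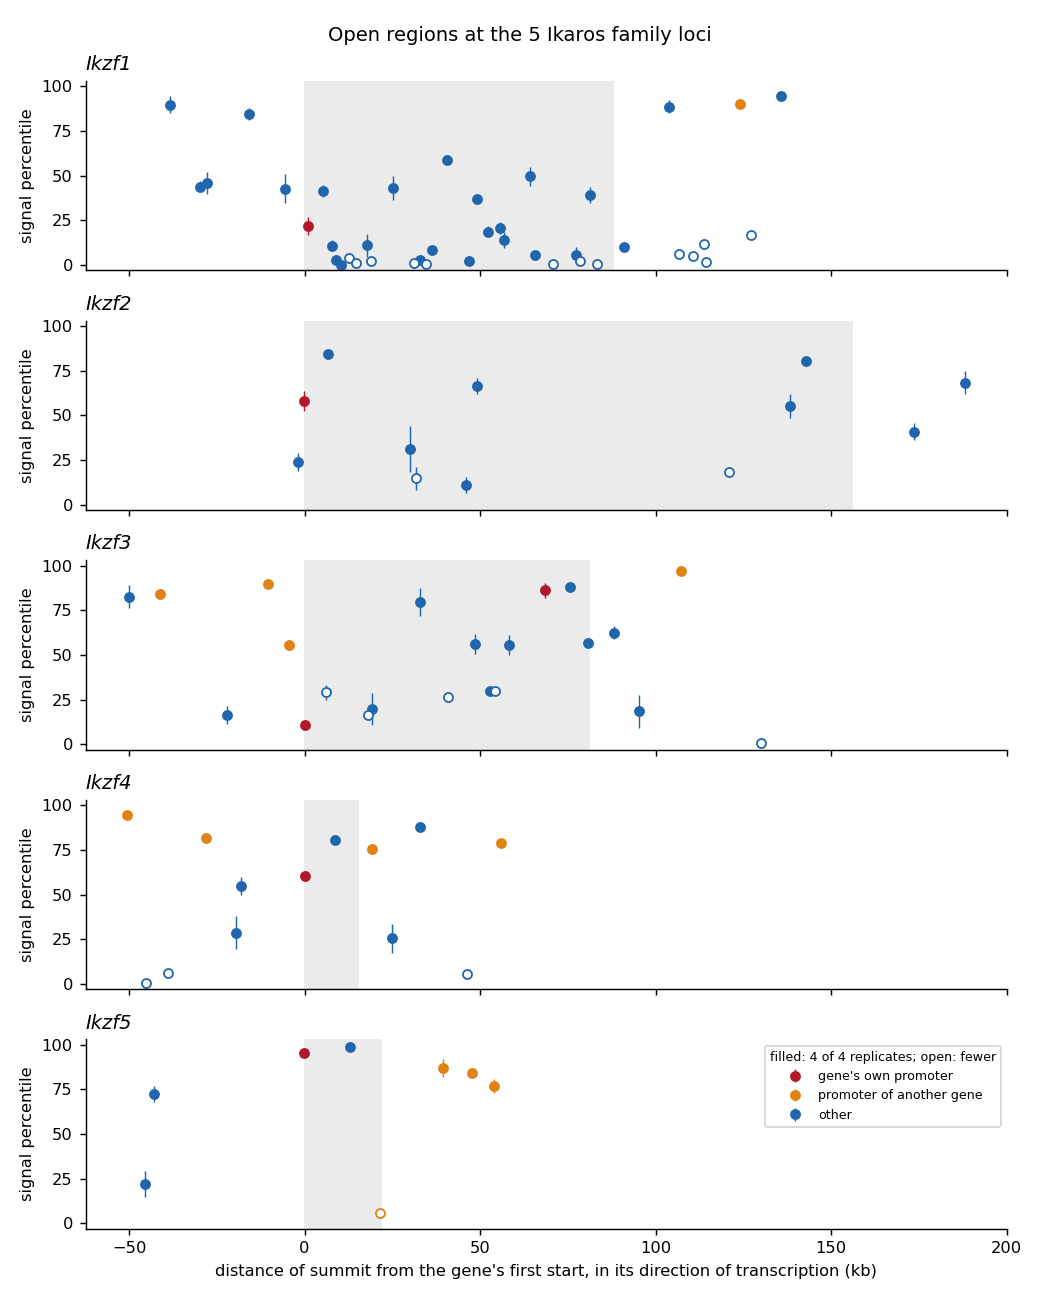
Mean signal percentile (vertical axis, bars are the SD over replicates) of each open region against the distance of its summit from the gene's first start in kb, in the direction of transcription. Grey marks the gene body, filled points are regions in all 4 replicates and open points regions in fewer. Inside Ikzf1 no shared region exceeds percentile 58.8, while 5 in its flanks lie above 75.

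The count at Ikzf1 therefore depended on the strength required. When only the 50000 regions of highest signal were kept in each replicate, 7 shared regions were counted in place of 28, and the density percentile among genes of like length went from 99.9 to 59.0. Keeping regions with -log10 q of 10 or more left Ikzf1 with 21 shared regions, at percentile 99.0. A limit on summits rather than on strength, with all 4 within 100 bp, left 18 of the 28. That was 64.3%, beside 79.9% of all shared regions of the genome. The same signal limit moved Ikzf3 up to percentile 95.7, Ikzf4 to 88.9 and Ikzf5 to 67.7, and Ikzf2 down to 43.1.

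Signal was also set against local coverage over the genome. Coverage was the share of the surrounding 100 kb that lay in shared regions. The median signal percentile of shared regions was 58.2 below 2% coverage, 63.5 from 2% to 5%, 60.9 from 5% to 10%, 53.8 from 10% to 15% and 42.5 from 15% up. It was thus lower in better covered surroundings, apart from the first class. The median by -log10 q was 46.6, 55.6, 59.7, 63.1 and 64.4 in the same classes. Of the 28 Ikzf1 regions 22 lay in the class with at least 15%, and their locus median coverage was 21.1%. Median coverage was 14.2% at Ikzf4 and 12.6% at Ikzf3, in the class from 10% to 15%. The part of local coverage in the low signal at Ikzf1 was not tested.

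**Figure D3:**
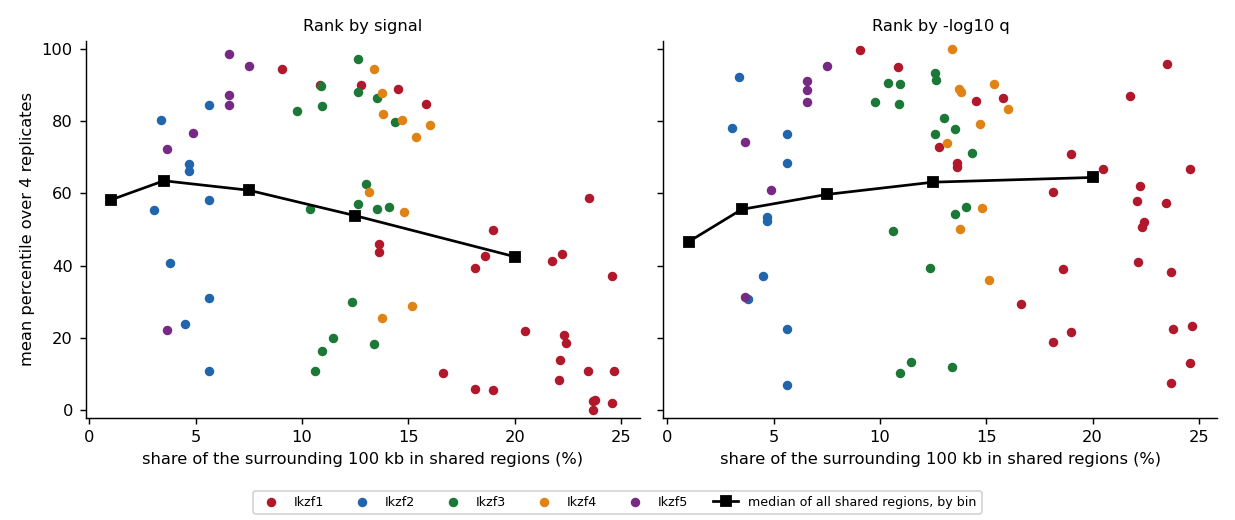
Mean percentile by signal (left) and by -log10 q (right) of the 72 shared regions of the 5 loci, against the share of the surrounding 100 kb that lies in shared regions (percent). Squares are the medians of all shared regions of the genome in 5 coverage classes, drawn at class midpoints, the last class being open-ended. The median by signal is 58.2 in the first class, highest in the second and 42.5 in the last, and that by -log10 q goes from 46.6 to 64.4.

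The promoter of Ikzf1 itself was weak by signal and surely called. Its region, chr11:11684646-11686784, covered all 5 annotated starts in all 4 replicates. Its signal was 4.18, 3.39, 3.37 and 3.68 in replicates 1 to 4, at percentiles 28.7, 17.0, 20.2 and 21.7, or 21.9 ± 4.96 (SD, n = 4). By -log10 q the percentiles were 72.2, 61.0, 65.6 and 67.9, or 66.7 ± 4.67. Every replicate placed this promoter higher by -log10 q than by signal. The same held in every replicate for the promoters of Ikzf2 and Ikzf4 and for the region at the coding start of Ikzf3. A second region, chr11:11689751-11690879, 5.12 kb into the gene, covered 3 starts of RefSeq transcripts from 11690121 to 11690177 in all 4 replicates. GENCODE M21 has an intron there. Its signal was 5.52, 5.74, 4.85 and 4.86, above that of the first promoter in every replicate, and its percentile was 41.3 ± 3.29 by signal and 86.8 ± 1.38 by -log10 q.

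Inside Ikzf1 the strongest region by both ranks lay in an intron, 40.7 kb from the first start, at chr11:11724441-11726549. Its signal was 7.26, 7.42, 7.36 and 7.05, at percentile 58.8 ± 1.92, and its -log10 q was 326, 347, 403 and 338, at percentile 95.8 ± 0.678. The 4 replicates were close together for this region. It was 1 of 12 members, of 72, at a mean percentile of 90 or more by -log10 q, beside 12.2% of all shared regions. By signal 5 of 72 members reached 90, beside 11.9%. The region of lowest signal in the family was also in Ikzf1, 10.4 kb from the start, with a signal of 1.70, 1.73, 1.48 and 1.59 and a percentile of 0.166 ± 0.096. It was listed in all 4 replicates.

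The flanks of Ikzf1 held its 3 strongest regions outside promoters. The first, 136 kb from the start and inside Ddc, which encodes aromatic amino acid decarboxylase, had a signal of 15.2, 15.2, 14.5 and 14.4, at percentile 94.4 ± 0.613. The next lay 38.4 kb upstream of the start, where no other protein-coding gene body lies, with a signal of 13.4, 14.3, 11.3 and 14.8, at percentile 89.9 ± 4.82. The third lay 104 kb downstream in Fignl1, a gene of DNA repair by recombination, with a signal of 12.8, 15.2, 12.5 and 12.1, at percentile 88.7 ± 3.41. All 3 exceeded every region of the Ikzf1 body in each replicate. The lists do not tell which gene a flanking region serves.

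Ikzf2, the Helios gene, was the sparsest locus of the 5, at 3.91 shared regions per 100 kb, and its promoter was open. Genes of like length had a median of 4.13, so the locus was near the middle for its length. The promoter region, chr1:69686766-69688377, had a signal of 7.97, 6.57, 7.49 and 6.66, at percentiles 63.2, 51.8, 62.5 and 54.6, or 58.1 ± 5.70. It covered the outermost GENCODE starts, at 69687140 and 69687245, and 3 RefSeq starts further upstream, from 69687349 to 69687351. The other 5 GENCODE starts, from 69684157 to 69685886, lay in a region in 0 of 4 replicates, as did 8 of the 11 starts that RefSeq gives. Of the starts annotated at Helios, only the most upstream ones thus lay in an open region. The outermost GENCODE start lies in CpG-rich DNA, with an observed to expected CpG ratio of 1.06, higher than at 99.5% of protein-coding genes.

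The strongest body region of Ikzf2 lay 6.55 kb into the gene, at chr1:69680309-69681240, with a signal of 12.6, 12.9, 11.0 and 11.4, at percentile 84.5 ± 2.18. Another lay 143 kb into the gene, near its end, with a signal of 11.2, 12.2, 10.2 and 10.6, at percentile 80.3 ± 2.31 by signal and 92.1 ± 0.518 by -log10 q. Both were stronger than the promoter in every replicate. A region 188 kb from the start, in the downstream flank, had a percentile of 68.2 ± 6.37. Between 49.3 kb and 138 kb from the start no shared region was found.

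Ikzf3, the Aiolos gene, had a weak region at its coding start and strong ones near its end. The region at the first start, chr11:98544983-98546681, had a signal of 2.96, 2.89, 2.86 and 2.79, at percentiles 11.4, 10.3, 12.4 and 9.23, or 10.8 ± 1.37, and 49.5 ± 1.73 by -log10 q. It was the weakest gene-start region of the family by both ranks. The start nonetheless lies in CpG-rich DNA, with a ratio of 0.911. A region 68.5 kb into the gene, chr11:98476869-98478101, covered the start of a noncoding transcript at 98477403 and had a signal of 14.0, 11.9, 12.4 and 11.5, at percentile 86.3 ± 4.19. Its -log10 q was 52.2 in replicate 1 and 152, 165 and 130 in the others. The promoter value of Ikzf3 thus rested on the choice of starts: 86.3 with all annotated transcripts and 10.8 with those of coding transcripts, an alternative added after the values had been seen.

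The strongest region of the Ikzf3 body lay 75.6 kb from the start, at chr11:98469864-98471184, with a signal of 12.6, 13.8, 12.4 and 12.5, at percentile 87.9 ± 1.32 by signal and 93.3 ± 1.12 by -log10 q. All 4 summits lay at the same base, in the sequence shown with a RUNX and an AP-1 string. A further body region 32.9 kb from the start overlapped an exon and had a signal of 12.6, 10.5, 11.9 and 8.91, at percentile 79.7 ± 8.01. Upstream, at the edge of the window 50.1 kb from the start, a region had a signal of 13.6, 12.7, 9.66 and 10.7, at percentile 82.7 ± 6.33. Its values in replicates 1 and 2 were above those in replicates 3 and 4.

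Ikzf4, the Eos gene, had a promoter of middling signal and 1 body region. The promoter region, chr10:128644209-128647018, had a signal of 7.79, 7.62, 7.52 and 7.04, at percentile 60.5 ± 2.45. It covered the 6 starts from 128645790 to 128645991 in all 4 replicates, and the start at 128644648 only in replicate 1. RefSeq gives 3 further starts, from 128669353 to 128669671, upstream of the GENCODE gene, and these lay in a region in 0 of 4 replicates. The body region, chr10:128636604-128637739, 8.77 kb from the start, had a signal of 10.7, 11.0, 11.0 and 11.2, at percentile 80.3 ± 2.19, above the promoter in every replicate. A region 32.8 kb downstream of the start, beyond the gene's end, was stronger, with a signal of 12.5, 13.0, 12.7 and 12.9, at percentile 87.7 ± 1.74. One 18.1 kb upstream had a percentile of 54.8 ± 5.00.

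Ikzf5, the Pegasus gene, had the strongest promoter of the family. The region, chr7:131409570-131411266, is shared with Acadsb, which encodes an acyl-CoA dehydrogenase and starts at the other end of the 79 bp printed above. Its signal was 16.6, 16.0, 14.2 and 14.2, at percentile 95.3 ± 1.76, and it cannot be divided between the genes. A single intron region, chr7:131397261-131397942, 12.9 kb from the start, was stronger still, with a signal of 17.7, 17.6, 16.8 and 16.1, at percentile 98.6 ± 0.487. It was the strongest member of the family by signal, and all 4 summits lay at the same base. By -log10 q it stood lower, at percentile 91.2 ± 0.317. Upstream, 42.8 kb from the start and inside Fgfr2, a region had a percentile of 72.3 ± 4.49, and another 45.4 kb from the start had 22.1 ± 7.03.

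Set side by side, the strongest promoter region of each gene stood by signal at percentile 95.3 ± 1.76 for Ikzf5, 86.3 ± 4.19 for Ikzf3, 60.5 ± 2.45 for Ikzf4, 58.1 ± 5.70 for Ikzf2 and 21.9 ± 4.96 for Ikzf1. The median of the 14070 open promoters was 79.2. Of the 10 pairs of genes, 9 had the same order in all 4 replicates, with differences from 9.01 to 73.4 percentile points in size. For these pairs the two-sided exact sign-flip permutation test gave p = 0.13, the smallest that 4 replicates allow, so no pair could pass 0.05. Ikzf4 exceeded Ikzf2 by 2.41 ± 3.98 (SD of the paired differences) in 3 of 4 replicates, with p = 0.375 in the same exact test. By -log10 q the range was narrower, at 95.2 ± 0.782 for Ikzf5, 77.7 ± 10.5 for Ikzf3, 74.0 ± 2.90 for Ikzf4, 68.4 ± 4.39 for Ikzf2 and 66.7 ± 4.67 for Ikzf1. On that scale the ranges of Ikzf1, Ikzf2, Ikzf3 and Ikzf4 overlapped, and only Ikzf5 stood apart. In replicate 1 Ikzf3 was the lowest of the 5, at 62.1. Ikzf4 still lay above Ikzf1 and Ikzf2 within each replicate. The order by signal also rested on the noncoding start of Ikzf3. With starts of coding transcripts only, Ikzf3 stood at 10.8, last of the 5, and lay below Ikzf1 by 11.1 ± 4.89, below Ikzf2 by 47.2 ± 4.68 and below Ikzf4 by 49.6 ± 1.16 in all 4 replicates (exact p = 0.13 each).

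**Figure D4:**
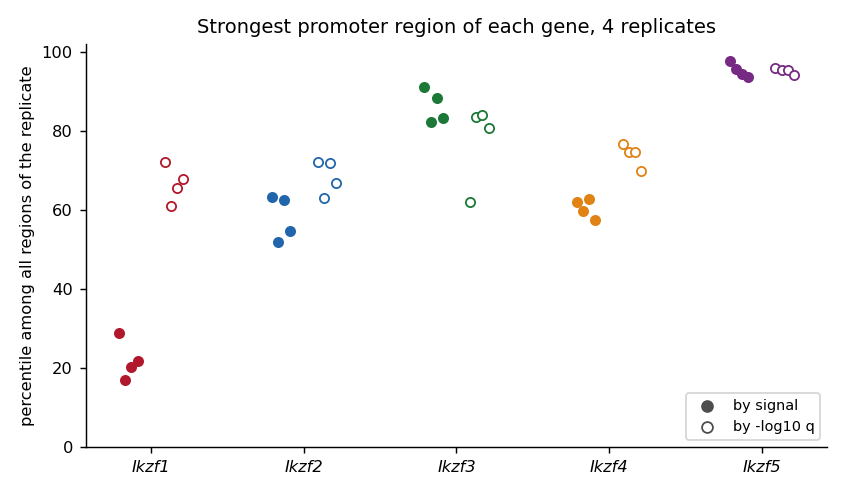
Percentile of the strongest promoter region of each gene among all regions of a replicate, by signal (filled) and by -log10 q (open), 1 point per replicate, left to right in the order of replicates 1 to 4. The Ikzf1 points lie between 17.0 and 28.7 by signal and between 61.0 and 72.2 by -log10 q, while the Ikzf5 points lie above 93 on both scales. The Ikzf3 points are those of the region at its internal noncoding start.

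The 24 members found in fewer than 4 replicates were all of low signal, with mean signal percentiles below 30. The share of such regions below 30 over the genome was not counted, so this is no trait of these loci. By -log10 q they reached percentile 42.55 at Ikzf1 and 40.53 at Ikzf3. By signal the highest was an Ikzf3 intron region at percentile 29.5, found in replicate 2. At Ikzf2 it was an intron region at 18.2, in replicate 2, and at Ikzf1 a region 127 kb from the start at 16.9, in replicate 4. The highest at Ikzf4 and at Ikzf5 were both at 5.88, in replicate 2. The deposited names of the regions carry 1 library tag in replicates 1 and 2 and another in replicates 3 and 4. Of the 6 members found in exactly 2 replicates, 5 were in replicates of 1 tag, beside 45.1% of such regions in the genome. Replicates 1 and 2 both ranked above 3 and 4 by signal for 17 of 72 members, beside 21.1%, and both below for 15, beside 21.4%. By tag, the mean promoter percentiles were 22.9 and 21.0 for Ikzf1 and 96.6 and 93.9 for Ikzf5. At Ikzf5 both replicates of the first tag ranked above both of the other, and at the other genes the tags overlapped.

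Neighbouring genes supplied 12 of the shared regions, whose summits lay at a promoter of another gene and at none of the family's. At Ikzf3 they lay at Ormdl3, a regulator of sphingolipid synthesis, at Zpbp2, a sperm protein gene, with 2 regions, and at Mien1, whose region stood at percentile 97.2 ± 1.26. At Ikzf4 they lay at Suox, which encodes sulfite oxidase, at Rps26, a ribosomal protein gene, and at Erbb3, a receptor kinase gene. A further one at Rab5b, a gene of early endosomes whose start lies just beyond the window, had percentile 94.5 ± 0.856 and was singled out after its value was seen. Without such regions the shared counts were 6 at Ikzf4, 3 at Ikzf5 (its own promoter, shared with Acadsb, left out as well), 13 at Ikzf3 and 27 at Ikzf1. Of the 13 other protein-coding genes with a start inside a window, 12 were open in all 4 replicates, and Grb7, near Ikzf3, in 0.

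Short strings for transcription factor motifs were searched on both strands within 300 bp at the summit of each shared region. A match is only these letters and is no site. The Ikaros core, TGGGAA, occurred in 22 of 72 members (30.6%), beside 22.1% of all shared regions, and in 11 of the 28 Ikzf1 regions. With 200 bp it was in 18.1% of members and 14.4% of all shared regions. The RUNX strings TGTGGTT or TGCGGTT were in 18.1% beside 12.8%, all of them outside promoters. The AP-1 string TGACTCA was in 14 members, 19.4% beside 26.4%: in 7 of 28 at Ikzf1, 5 of 17 at Ikzf3, 2 of 7 at Ikzf5, 0 of 10 at Ikzf2 and 0 of 10 at Ikzf4. The region 40.7 kb into Ikzf1 held both an AP-1 and an Ikaros core string.

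For every string searched, the confidence interval of the member share, by Wilson's method, held the genome share. This interval takes regions as independent, though 28 of the 72 lie at Ikzf1 alone, so it cannot decide whether a share differs. It ran from 21.13% to 41.95% for the Ikaros core, 10.87% to 28.48% for RUNX and 11.95% to 30.03% for AP-1. The strings other than these were nearer their genome shares or rare. ETS (CAGGAAG or CCGGAAG) was in 22.2% beside 20.4%, and NFAT (TGGAAA) in 23.6% beside 26%. STAT (TTCNNNGAA) was in 11.1% beside 10.3%, and TCF/LEF (CTTTGAT or CTTTGAA) in 12.5% beside 11.4%. KLF/SP (GGGCGG) was in 19.4% beside 19.2%, and ROR (TAGGTCA or TGGGTCA) in 5.56% beside 7.67%. The NF-kB motif was in 2 of 72 members, 2.78% beside 8.88%, and the CTCF motif in 0 of 72, beside 3.73%. Of 139 matches at the members, 10 overlapped a match of another string.

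**Figure D5:**
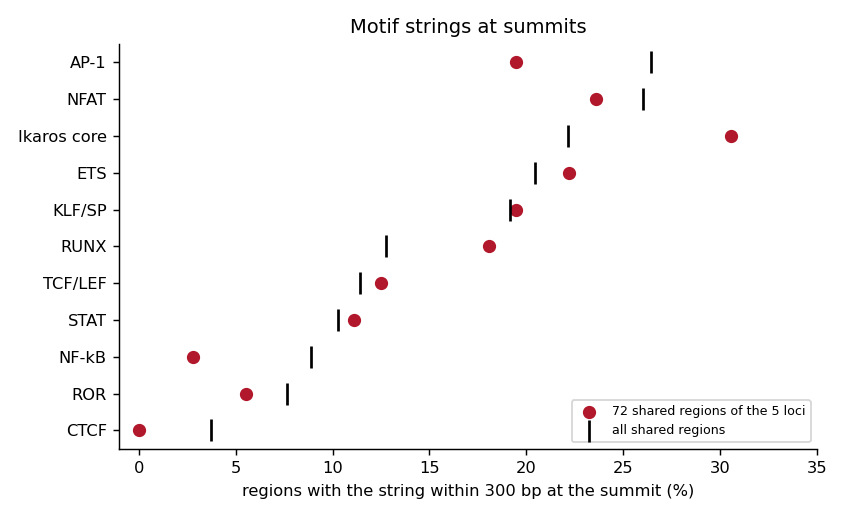
Share of regions (percent) with each motif string within 300 bp at the summit, in the 72 shared regions of the 5 loci (points) and in all shared regions of the genome (bars). Points lie right of the bar for the Ikaros core (30.6% against 22.1%) and RUNX, and left of it for AP-1 (19.4% against 26.4%), NF-kB and CTCF. For each string the confidence interval of the member share, not drawn, holds the genome share, but it takes regions of the same locus as independent.

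Genes whose products work with the family were open as a rule. Promoters were open in all 4 replicates for 13 of 13 NuRD genes, among them Chd4, the remodelling ATPase, and Hdac1 and Hdac2, the deacetylases. The same held for 8 of 8 genes of other corepressors and remodellers, such as Ctbp1, Sin3a and Smarca4. It held too for 5 of 5 genes of the cereblon ubiquitin ligase, whose human form degrades Ikaros and Aiolos in the presence of thalidomide analogues. These shares stand beside 64.1% of all protein-coding genes. As a check of the cell label, the promoters of 8 of 8 Th17, 7 of 7 T cell and 6 of 6 regulatory T cell marker genes were open, Foxp3 among them. Of the markers of other cells, 2 of 6 CD8 or NK and 3 of 6 myeloid promoters were open. The open ones were Cd8b1, Eomes, Spi1, Mpo and Cd14. Of the others, Klrb1c was open in 3 replicates, and Cd8a, Ncr1, Gzma, Lyz2, Csf1r and Itgam in 0. Of the B cell genes, Pax5, Ebf1 and Blk were open in 4 replicates, Cd79b in 2, and Cd79a and Ms4a1 in 0. Their part in the results was not tested.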

How the data were processed

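ATAC-seq peak lists of 4 replicates of 1 group were used. Per the labels they refer to build mm10, and per the text files deposited with them each list was called from the alignments of 1 replicate. Which aligner and caller made them, and in which versions, is not given in the sources used here. The deposited signal is a fold enrichment over background, not normalised between replicates. Each peak also has a deposited -log10 p and a deposited -log10 q, and a deposited display score that was not used as a measure. The deposited summit is an offset from the region's start.

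Between 75 and 87 regions per replicate lay outside chromosomes 1 to 19, X and Y and were left out. Regions of the 4 lists that overlapped by at least 1 bp were merged, and the region of highest signal stood for its replicate. Signal and -log10 q were ranked within each replicate, since the lists give no depth and precision is the spread between replicates. Gene models came from GENCODE M21 and further starts and exons from RefSeq on GRCm38.p6. Printed sequences keep out exons of coding genes. With 1 group the only test was the two-sided exact sign-flip permutation test over replicates, for 10 pairs of promoters. Merging, promoter calls and string searches were tested on simulated data. Python 3.11.15, pandas 2.3.3, numpy 2.4.6 and matplotlib 3.10.9 were used.

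The count over the list of B cell markers is not reported here, and the values of 6 of its genes are given. The members, the gene lists and the motif strings were chosen with earlier results of these data known. Named regions were each gene's promoter region, the 3 strongest other shared regions outside promoters of other genes, and the strongest region found in some replicates only. The rank by -log10 q beside that by signal, the comparison with local coverage, the internal RefSeq start of Ikzf1, its region 40.7 kb from the start and the rules for the printed stretches were chosen after values had been seen. Alternatives were stricter thresholds, other flanks, other definitions of shared, other starts and windows, and each replicate or library tag left out.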

Additional observations from a re-analysis of the deposited data

Results flagged for a closer look

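Of 30 quantities checked over the 4 replicates, 2 had a replicate that stood apart from the other 3, where chance alone flags about 1 in 20. Replicate 1 listed 10 regions at Ikzf2, where replicates 2, 3 and 4 each listed 11. Replicate 2 listed 9 regions at Ikzf5, where replicates 1, 3 and 4 each listed 7. Both are small whole numbers with ties among the other 3 replicates, and neither bears on the shared regions, which were 10 at Ikzf2 and 7 at Ikzf5 with any 1 replicate left out.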

How the results depend on the processing

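Of 230 alternative values 196 kept within the limits set for them and 34 moved. Reversals of order between genes were not counted among these. The open promoters numbered 5 in every alternative run except the strongest 50000 regions of each replicate. These gave 4, without Ikzf1 and with Ikzf3 kept by its internal noncoding start. On that setting the shared regions were 7 at Ikzf1 and 6 at Ikzf2, and with summits within 100 bp 18 at Ikzf1. A flank of 10 kb gave 11 at Ikzf3, 4 at Ikzf4 and 2 at Ikzf5, and the gene body alone 9, 2 and 2. Without regions at promoters of other genes 6 were left at Ikzf4 and 3 at Ikzf5. Ranked by -log10 q, the promoter percentiles were 66.7 (Ikzf1), 68.4 (Ikzf2), 77.7 (Ikzf3) and 74.0 (Ikzf4). Among promoter regions only they were 13.6, 37.3, 74.0, 39.4 and 91.4 for Ikzf1 to Ikzf5. With starts of protein-coding transcripts only, Ikzf3 had 10.8, below the other 4. Alternatives for the density percentile were chosen after seeing the data. With the strongest 50000 regions it was 59.0, 43.1, 95.7, 88.9 and 67.7 for Ikzf1 to Ikzf5. Keeping regions with -log10 q of 10 or more it was 99.0 for Ikzf1, and by bases covered 95.7 for Ikzf3 and 90.5 for Ikzf4. Leaving out each replicate gave 44.7 to 45.9 for Ikzf2. With 200 bp at the summit the Ikaros core string was in 18.1% of the shared members (14.4% of all shared regions) and the NFAT string in 15.3% (18.6%), and outside promoters KLF/SP was in 9.26% (8.06%). Fewer regions or bases enter these counts by construction, and for the other moves the cause was not tested. No paired analysis was possible because there is 1 group to compare, and pairs of promoters were compared within replicates instead.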
